A study of Felis catus with 25 samples.

Results

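Fatty acid oxidation enzymes are described here through 6 genes, CPT1B, CPT2, ACADVL, ACADL, ACADM and ACADS. They were chosen by symbol, though with earlier results of these data known. All 6 were among the 13949 gene symbols of the count tables, and all 6 passed the filter on low counts that left 10699 genes for testing. The cells were fibroblasts of the cornea of the cat (Felis catus), which become contractile myofibroblasts when given the growth factor TGFb1, and their polyadenylated RNA was sequenced. There were 25 libraries in 5 groups of 5. UK held cells given TGFb1 at 1 ng/ml for 2 days and then, in its place, UK-5099 at 30 uM for 3 days, with harvest at day 5. UK-5099 inhibits the mitochondrial pyruvate carrier. TrogGW held cells given the same 2 days of TGFb1 and then 7.5 uM Troglitazone with 10 uM GW9662 for 3 days. Troglitazone is a ligand of the nuclear receptor PPAR-gamma, and GW9662 is an antagonist of that receptor. Trog held cells given the 2 days of TGFb1 and then 7.5 uM Troglitazone alone for 3 days. TGFb held cells harvested at day 2 after the 2 days of TGFb1, and FB held untreated cells of day 0 that the labels call quiescent. Neither a day-5 group without a drug nor a day-2 group without TGFb1 was among the samples analysed here, so time, withdrawal of TGFb1 and drug cannot be told apart in comparisons with TGFb or FB. TrogGW and Trog differ in GW9662 alone. Libraries of a group are biological replicates per the labels, which do not state separate cultures or donors. The p-values therefore cover the spread between these libraries, which may be technical.

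Mitochondria oxidise long-chain fatty acids only after the carnitine shuttle has carried them across the inner membrane. CPT1 enzymes of the outer membrane, of which CPT1A is known as the liver form and CPT1B as the muscle form, attach carnitine to the acyl chain, and CPT2 on the matrix side takes it off again. Acyl-CoA dehydrogenases then carry out the first step of each round of beta-oxidation, with ACADVL, ACADL, ACADM and ACADS taking very long, long, medium and short chains. PPAR nuclear receptors are known to raise the transcription of many of these genes in liver, heart and muscle.

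The libraries held 14.8 to 25.2 M counts. Levels are given as CPM, read counts per M counts of the library, with totals scaled by TMM, a method that assumes most genes do not change. The members' counts per library lay between 58 and 330 for CPT1B, the lowest, and between 2228 and 5078 for ACADVL, the highest. TMM factors were 0.74 to 0.94 in UK, 1.28 to 1.38 in TrogGW, 1.19 to 1.21 in Trog, 0.713 to 0.768 in TGFb and 0.955 to 0.992 in FB, so scaling matters between groups and is followed through below. UK replicate 5 stood apart. Across genes, its correlation in log2 CPM with the rest of its group was 0.852 to 0.868, against 0.988 to 0.995 for every other pair within a group. Every test is therefore given with all 25 libraries and, where it matters, without that library, which also widened the shared estimate of the spread in comparisons that do not use UK. The fibroblast label was checked with 10 of 12 listed fibroblast and keratocyte genes, whose summed level was 90400 to 130000 CPM in UK, 1260 to 2910 in TrogGW, 2990 to 4760 in Trog, 92000 to 111000 in TGFb and 65800 to 80200 in FB. The sum is mostly COL1A1 and COL1A2, the chains of type I collagen. COL1A1 averaged 65000 CPM in UK, 815 in TrogGW, 1130 in Trog, 61400 in TGFb and 43700 in FB. Other listed genes followed it in part or not at all. PDGFRB averaged 179 CPM in UK, 176 in TrogGW, 387 in Trog, 107 in TGFb and 176 in FB. LUM averaged 3670 CPM in UK (2910 without replicate 5), 64.8 in TrogGW, 243 in Trog, 859 in TGFb and 189 in FB. DCN averaged 1150 CPM in UK, 218 in TrogGW, 579 in Trog, 583 in TGFb and 368 in FB. THY1 and CD34 were near 0, with group means of at most 0.459 and 0.62 CPM. KRT3 and KRT12 of corneal epithelium and PTPRC of immune cells had 0 counts in all libraries. In these bulk samples, fewer cells of a type and less RNA per cell cannot be told apart. CPM values carry no gene length, so levels are compared between groups for each gene and never between genes.

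The 6 genes did not move as a block. CPT2 was lower in all 3 day-5 groups than in TGFb and FB, to between 0.206 and 0.53 of their levels, and this held under every scaling tried. CPT1B was highest in UK and Trog and lowest in TrogGW. ACADL was highest in Trog and, with TMM scaling, lowest in TrogGW (lowest in FB with library totals alone). ACADM was lowest in Trog, and ACADS was lowest in TGFb. With TMM scaling ACADVL differed least, with a range of 0.26 on the log2 scale between its highest and lowest group mean (UK without replicate 5), against a median range of 1.19 over all tested genes. Adding GW9662 to Troglitazone went with lower CPT1B, CPT2 and ACADL and with higher ACADM. For ACADS the difference was 0.27 and not called with all 25 libraries and TMM. It was called, and higher, with library totals alone or without UK replicate 5. For ACADVL it was -0.25 and not called with all 25 libraries and TMM, and called without UK replicate 5 (-0.26 on the log2 scale). That difference was -0.084 and not called with all 25 libraries and library totals alone.

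**Figure D1:**
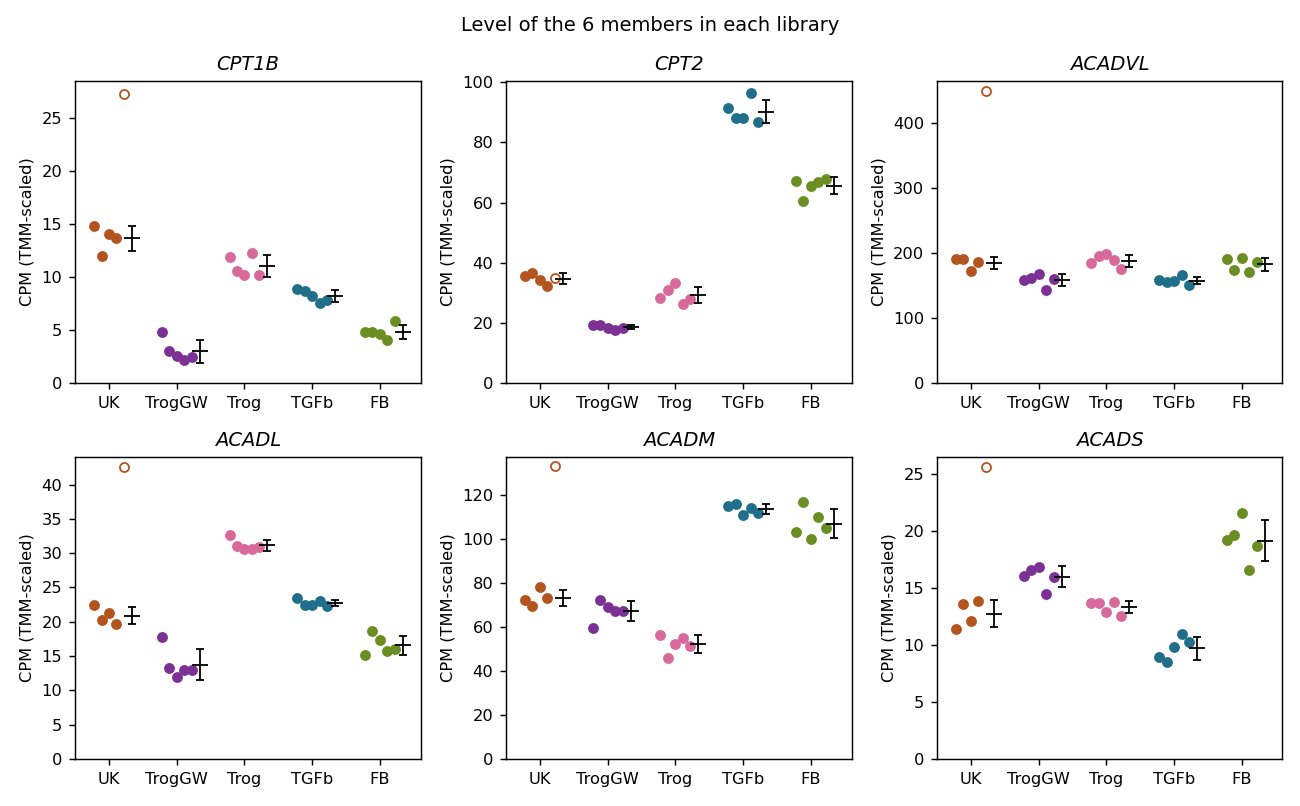
CPM (TMM-scaled, linear axes from 0) of the 6 genes in each of the 25 libraries, with points in the order of replicate number and the mean ± SD of each group beside them. The open point is UK replicate 5, which the UK mean leaves out; it lies above its group in every panel but that of CPT2, where it had 34.8 CPM.

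CPT1B, the muscle form of the outer-membrane carnitine palmitoyltransferase, had 14.8, 12, 14.1, 13.7 and 27.2 CPM in UK replicates 1 to 5. It had 4.86, 3.00, 2.55, 2.19 and 2.45 CPM in TrogGW and 11.9, 10.6, 10.2, 12.3 and 10.2 CPM in Trog. TGFb libraries held 8.92, 8.64, 8.18, 7.54 and 7.84 CPM, and FB libraries 4.84, 4.78, 4.6, 4.1 and 5.83 CPM. Every TrogGW library lay below every Trog library, and every Trog library lay above every TGFb library. UK replicate 5 had the highest level of all, and of the other UK libraries only replicate 2 lay within the Trog range.

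CPT1B fell in TrogGW relative to Trog by 1.87 ± 0.20 on the log2 scale (SE, n = 5 each), to 0.273 of the Trog level (adjusted p = 7.46e-08, by the quasi-likelihood test of edgeR and the Benjamini-Hochberg method over all tested genes, as for every adjusted p below). Without TrogGW replicate 1, its highest library, the fall was 2.12. CPT1B also fell in TrogGW relative to TGFb (log2 fold change -1.45 ± 0.20, adjusted p = 1.18e-06) and to FB (-0.68 ± 0.21, adjusted p = 0.00558), the second of which was no longer called with library totals alone (-0.21). In UK it rose relative to TGFb (0.98 ± 0.20, adjusted p = 0.000201, and 0.73 without replicate 5) and to FB (1.75 ± 0.20, adjusted p = 7.97e-08, and 1.5 without replicate 5). In TGFb it rose relative to FB by 0.77 ± 0.20 (adjusted p = 0.00374), a call that ended with library totals alone (0.39, adjusted p = 0.0527). Trog exceeded FB by 1.20 ± 0.20 (adjusted p = 1.47e-05). Trog against TGFb missed the threshold with all 25 libraries (0.43 ± 0.20, adjusted p = 0.0613) and passed it without UK replicate 5 (adjusted p = 0.00328) or without TrogGW replicate 1 (adjusted p = 0.0278). It also passed with upper quartile scaling (0.48, adjusted p = 0.0289) and with library totals alone (1.11, adjusted p = 1.89e-06).

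From high to low, the order of CPT1B was UK, Trog, TGFb, FB and TrogGW. UK and Trog, the highest pair, differed by 0.56 ± 0.19 (adjusted p = 0.0152) and by 0.30 without replicate 5 (adjusted p = 0.03), but not in a fit of those 2 groups alone (adjusted p = 0.055) or with library totals alone (0.066, adjusted p = 0.725). Without replicate 5 and with library totals alone the difference was -0.10.

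CPT2, the matrix-side carnitine palmitoyltransferase that all long-chain acyl groups pass, had 35.6, 36.7, 34.2, 32.4 and 34.8 CPM in UK. TrogGW libraries held 19.3, 19.2, 18.3, 17.8 and 18.3 CPM of it, and Trog libraries 28.2, 31.0, 33.2, 26.3 and 28.1 CPM. TGFb libraries held 91.3, 88.0, 88.2, 96.4 and 86.8 CPM, against 67.2, 60.6, 65.5, 66.8 and 67.9 CPM in FB. The groups did not overlap, apart from UK and Trog, and UK replicate 5 lay within its group.

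Relative to TGFb, CPT2 fell in UK by 1.38 ± 0.068 (adjusted p = 7.19e-14), in TrogGW by 2.28 ± 0.070 (adjusted p = 6.69e-18) and in Trog by 1.62 ± 0.069 (adjusted p = 1.62e-15). These folds are 0.385 in UK, 0.206 in TrogGW and 0.325 in Trog. With library totals alone the falls were smaller, at -1.15, -1.43 and -0.94, and all 3 passed the test. Relative to FB it fell in UK by 0.92 ± 0.068, in TrogGW by 1.82 ± 0.069 and in Trog by 1.16 ± 0.068, with a highest adjusted p of 4.19e-11. TrogGW also lay below Trog, with a log2 fold change of -0.66 ± 0.068 (adjusted p = 3.33e-08; -0.49 with library totals alone). TGFb exceeded FB by 0.46 ± 0.067 (adjusted p = 6.29e-06), which was 0.084 and not called with library totals alone (adjusted p = 0.379).

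The order of CPT2 from high to low was TGFb, FB, UK, Trog and TrogGW, with each neighbouring pair past the threshold. The closest pair was UK and Trog (0.24 ± 0.068, adjusted p = 0.00336). That difference had the opposite sign with library totals alone (-0.21, adjusted p = 0.0216) and was not called in a fit of the 2 groups (adjusted p = 0.0814). CPT1B and CPT2 thus differed in which groups they were high in: TGFb and FB had the most CPT2, and UK and Trog the most CPT1B.

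ACADVL, the dehydrogenase for very long chains on the inner membrane, ranged over 172 to 191 CPM in UK replicates 1 to 4 and stood at 449 CPM in replicate 5. It ranged over 143 to 168 CPM in TrogGW, 175 to 198 CPM in Trog, 151 to 166 CPM in TGFb and 171 to 192 CPM in FB. UK without replicate 5, Trog and FB covered nearly the same range, and TrogGW and TGFb lay below it. With all 25 libraries and TMM only UK against TGFb passed the test among its 9 comparisons (0.59 ± 0.17, adjusted p = 0.00711). Under library totals alone 5 passed, which were UK (0.77), TrogGW (0.86) and Trog (0.94) against TGFb, Trog against FB (0.35) and TGFb against FB (-0.59). With TMM, UK against TGFb was 0.23 ± 0.053 without UK replicate 5 (adjusted p = 0.000335) and not called in a fit of the 2 groups (adjusted p = 0.105). TrogGW and TGFb were closest, at a difference of 0.0044 with a 95% interval of -0.34 to 0.35. Without UK replicate 5 that interval was -0.098 to 0.099, but with library totals alone the difference was 0.86 (adjusted p = 6.24e-06). Relative to Trog, TrogGW was lower without UK replicate 5 (-0.26 ± 0.050, adjusted p = 4.41e-05). In the same fit TGFb was lower than FB (-0.22 ± 0.050, adjusted p = 0.000434), and Trog higher than TGFb (0.26 ± 0.050, adjusted p = 3.35e-05). UK and Trog did not differ past the threshold either with all libraries (0.34, adjusted p = 0.1) or without replicate 5 (-0.025, adjusted p = 0.676). Leaving out UK replicate 3 instead, which keeps replicate 5, brought the difference to 0.43 (adjusted p = 0.037). UK against FB likewise passed when any 1 of UK replicates 1 to 4 was left out (0.44 to 0.47), and was 0.015 without replicate 5. TrogGW against FB was -0.21 (adjusted p = 0.284, and 0.000243 without UK replicate 5) and turned to 0.27 with library totals alone.

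ACADL, the long-chain dehydrogenase, had 22.4, 20.3, 21.3, 19.6 and 42.5 CPM in UK. It had 17.8, 13.2, 11.9, 12.9 and 13.0 CPM in TrogGW and 32.6, 31.0, 30.6, 30.6 and 30.9 CPM in Trog. TGFb libraries held 23.4, 22.4, 22.4, 23.0 and 22.3 CPM, and FB libraries 15.2, 18.6, 17.3, 15.8 and 16 CPM. Trog libraries lay close together and above all others but UK replicate 5. TrogGW replicate 1 stood above the other TrogGW libraries and inside the FB range.

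ACADL fell in TrogGW relative to Trog by 1.18 ± 0.16, to 0.443 of the Trog level (adjusted p = 1.45e-06), and by 1.29 without TrogGW replicate 1. This was -1.01 with library totals alone (adjusted p = 4.18e-07). In Trog it rose relative to TGFb by 0.46 ± 0.16 (adjusted p = 0.0131) and relative to FB by 0.91 ± 0.16 (adjusted p = 2.18e-05). Its fall in TrogGW relative to TGFb (-0.72 ± 0.16, adjusted p = 0.000277) turned to 0.13 with library totals alone (adjusted p = 0.338). TGFb exceeded FB by 0.45 ± 0.16 (adjusted p = 0.0252), which was not called with library totals alone (0.074), without FB replicate 1 (adjusted p = 0.0577) or without FB replicate 4 (adjusted p = 0.0514).

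In the order of ACADL, Trog came before TGFb, UK, FB and TrogGW once UK replicate 5 was set aside. UK and TGFb, neighbours in it, did not differ past the threshold: 0.15 with all libraries (adjusted p = 0.453; 0.34 and adjusted p = 0.0221 with library totals alone) and -0.12 without replicate 5 (adjusted p = 0.207, 95% interval -0.28 to 0.045). UK was below Trog without replicate 5 (-0.57 ± 0.080, adjusted p = 1.75e-07), but not past the threshold with it (-0.31, adjusted p = 0.0864; -0.80 and adjusted p = 4.79e-06 with library totals alone). UK was above FB in both (0.60 with all libraries, 0.33 without replicate 5, adjusted p = 0.00225 and 0.000627). At the low end, TrogGW and FB differed by -0.27 (adjusted p = 0.128, and 0.00228 without UK replicate 5). This turned to 0.20 with library totals alone and to -0.38 without TrogGW replicate 1 (adjusted p = 0.0365).

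**Figure D2:**
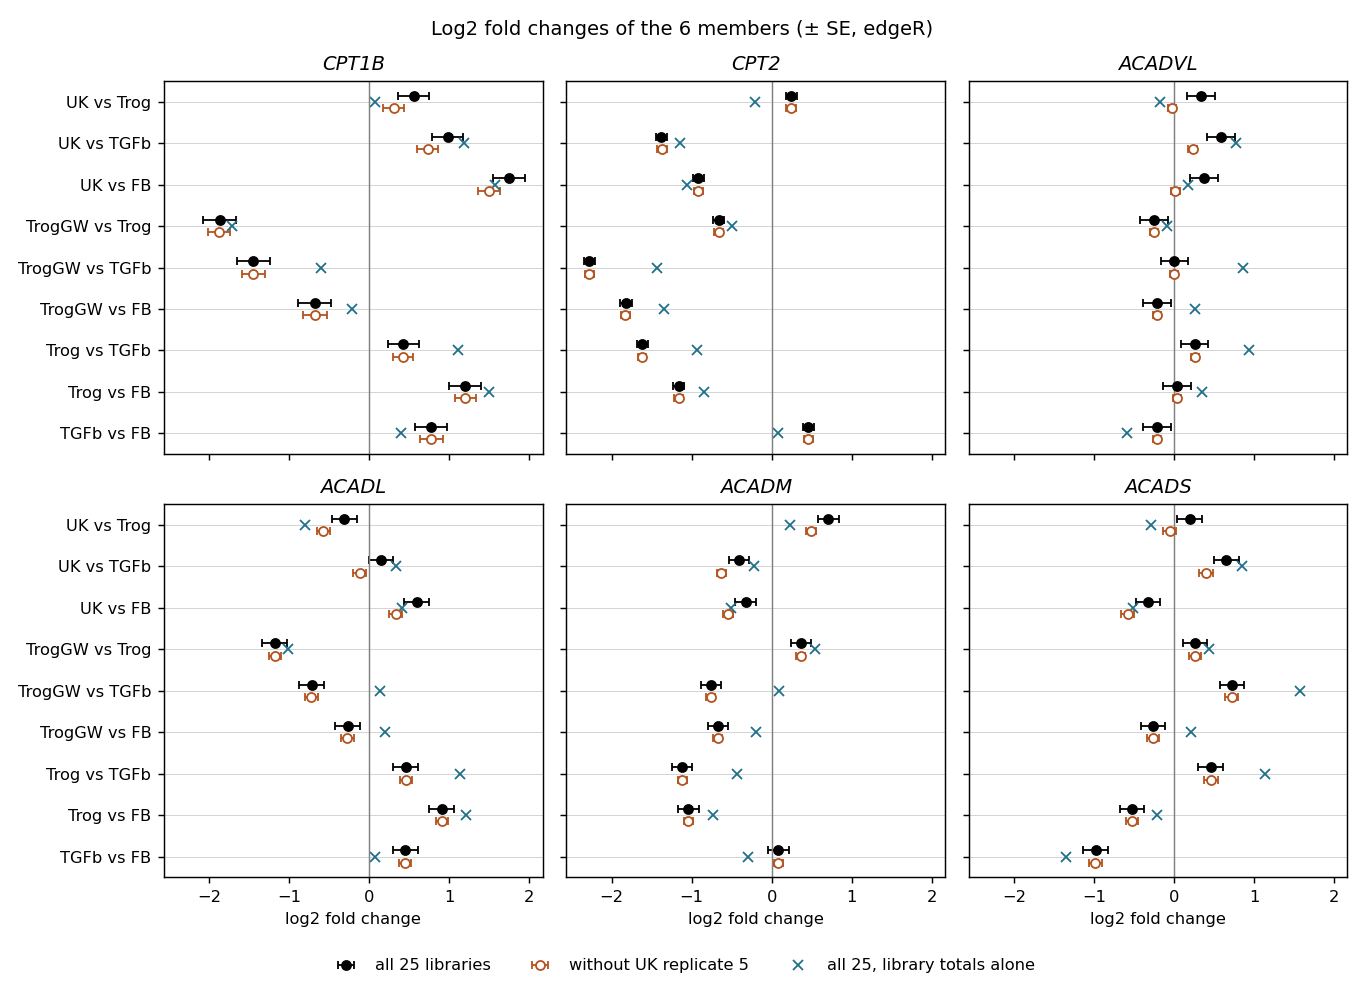
Log2 fold changes of the 6 genes (x axis) in the 9 comparisons (rows), with bars of 1 SE from edgeR. Filled points use all 25 libraries, open points leave out UK replicate 5 and crosses use library totals without TMM factors; the falls of CPT2 in UK, TrogGW and Trog lie left of 0 for all 3, and crosses of UK, TrogGW and Trog against TGFb lie to the right of their points, those of TGFb against FB to the left.

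ACADM, the medium-chain dehydrogenase, had 72.2, 69.6, 78.3, 73.1 and 133 CPM in UK. TrogGW libraries held 59.6, 72.2, 69.1, 67.4 and 67.4 CPM, and Trog libraries 56.3, 45.8, 52.1, 55.1 and 51.2 CPM. In TGFb it had 115, 116, 111, 114 and 112 CPM, against 103, 117, 99.9, 110 and 105 CPM in FB. TGFb and FB overlapped and lay above all day-5 libraries but UK replicate 5, and all Trog libraries lay below all TrogGW and UK libraries.

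Relative to TGFb, ACADM fell in UK by 0.41 ± 0.13 (adjusted p = 0.00929; -0.63 without replicate 5). That call ended in a fit of the 2 groups (adjusted p = 0.118) and with library totals alone (adjusted p = 0.0714). It fell in TrogGW by 0.76 ± 0.13 (adjusted p = 1.33e-05), a difference that became 0.097 with library totals alone (adjusted p = 0.373). In Trog it fell by 1.12 ± 0.13 (adjusted p = 5.62e-08; -0.44 with library totals alone, adjusted p = 0.000434). TrogGW exceeded Trog by 0.37 ± 0.13 (adjusted p = 0.0226), and ACADM was the only member called higher with GW9662 with all 25 libraries and TMM. That call ended without TrogGW replicate 2 (adjusted p = 0.0532) or without Trog replicate 2 (adjusted p = 0.0645), and without UK replicate 5 the adjusted p was 1.14e-06. UK exceeded Trog by 0.71 ± 0.13 (adjusted p = 4.46e-05) and by 0.49 without replicate 5. With library totals alone that difference was 0.22 (adjusted p = 0.055). UK differed from FB by -0.33 ± 0.13 (adjusted p = 0.0315), a call that ended without FB replicate 2 or 4, without any 1 of UK replicates 1 to 4, with DESeq2 size factors in edgeR (adjusted p = 0.0578) and in a fit of the 2 groups (adjusted p = 0.175). It was -0.54 without replicate 5 (adjusted p = 1.09e-09).

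The order of ACADM was TGFb, FB, UK, TrogGW and Trog. TGFb and FB at its top did not differ past the threshold (0.085, adjusted p = 0.645, 95% interval -0.16 to 0.33), and their difference was -0.29 with library totals alone (adjusted p = 0.0171). UK and TrogGW differed by 0.34 ± 0.13 (adjusted p = 0.02), and by 0.13 ± 0.058 without replicate 5 (adjusted p = 0.0389).

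ACADS, the short-chain dehydrogenase, ranged over 11.4 to 13.9 CPM in UK replicates 1 to 4 and had 25.7 CPM in replicate 5. It ranged over 14.5 to 16.9 CPM in TrogGW, 12.6 to 13.8 CPM in Trog, 8.52 to 11 CPM in TGFb and 16.6 to 21.6 CPM in FB. The TGFb libraries lay below all others and did not overlap with any group. ACADS fell in TGFb relative to FB by 0.98 ± 0.15, to 0.506 of the FB level (adjusted p = 1.6e-05), and by more with library totals alone (-1.35). Relative to TGFb it rose in UK (0.65 ± 0.15, adjusted p = 0.00114, and 0.40 without replicate 5), in TrogGW (0.72 ± 0.15, adjusted p = 0.000215) and in Trog (0.46 ± 0.15, adjusted p = 0.0123). All 3 were larger with library totals alone. Relative to FB it fell in Trog (-0.52 ± 0.15, adjusted p = 0.00422; -0.22 and not called with library totals alone). In UK it was lower than in FB without replicate 5 (-0.58 ± 0.082, adjusted p = 2.17e-07) and did not pass with it (-0.33, adjusted p = 0.0672). It did pass with it under library totals alone (-0.51, adjusted p = 0.00139) and upper quartile scaling (adjusted p = 0.0469).

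FB, TrogGW, Trog, UK and TGFb was the order of ACADS from high to low without UK replicate 5. Of its neighbours, TrogGW and FB (-0.26, adjusted p = 0.127), TrogGW and Trog (0.27, adjusted p = 0.164), and UK and Trog (0.19, adjusted p = 0.273) did not differ past the threshold with all 25 libraries. The first 2 did without UK replicate 5 (adjusted p = 0.00179 and 0.00285). UK and Trog did not in either case (-0.058 without replicate 5, 95% interval -0.22 to 0.10). With library totals alone, TrogGW against FB was 0.22 (adjusted p = 0.12), and both other pairs passed, with TrogGW against Trog at 0.43 (adjusted p = 0.00664) and UK against Trog at -0.29 (adjusted p = 0.0442).

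Members called are to be read against the shares of all tested genes called in the same comparison, which were large. In UK against Trog 3 of 6 members were higher and 0 lower, against 32.9% of all tested genes higher and 28.2% lower. Without UK replicate 5, 4 of the 6 were called there, against 75.1% of all genes. In UK against TGFb 3 were higher and 2 lower (28.0% and 22.5% of all tested genes), and 5 were called without replicate 5 (70.9%). In UK against FB 2 were higher and 2 lower (30.0% and 26.5%), and 5 were called without replicate 5 (77.8%). TrogGW against Trog gave 1 higher and 3 lower (22.8% and 20.4%), and 6 called without UK replicate 5 (71.6%). TrogGW against TGFb gave 1 higher and 4 lower (38.1% and 31.3%), and 5 called without that library (85.9%). TrogGW against FB gave 0 higher and 3 lower (36.2% and 33.6%), and 6 called without it (85.8%). Trog against TGFb gave 2 higher and 2 lower (32.9% and 29.7%), and 6 called without it (81.0%). Trog against FB gave 2 higher and 3 lower (32.4% and 31.5%), and 5 called without it (81.4%). TGFb against FB gave 3 higher and 1 lower (18.0% and 20.2%), and 5 called without it (66.0%). With shares of this size, the number of members called says little about these genes, and the size and direction of each change carry the description.

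The split into higher and lower members depended on the scaling. Under library totals alone, UK against Trog had 0 members higher and 3 lower (16.7% and 49.9% of all tested genes), and TGFb against FB also 0 and 3 (7.57% and 47.1%). UK against TGFb had 4 and 1 (42.5% and 14.8%), and UK against FB 2 and 3 (23.5% and 32.6%). TrogGW had 2 and 3 against Trog (31.9% and 13.7%), 2 and 2 against TGFb (70.1% and 12.4%), and 0 and 1 against FB (54.8% and 19.3%). Trog had 4 and 2 against TGFb (63.8% and 12.9%) and 3 and 2 against FB (45.9% and 21.4%).

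The members' median log2 fold change was -0.46 in TrogGW against Trog, beside 0.0096 over all tested genes. It was -0.74 in TrogGW against TGFb and -0.47 in TrogGW against FB, where all tested genes had 0.092 and 0.031. It was 0.34 in Trog against TGFb, beside 0.044, and -0.24 in Trog against FB, beside 0.0011. For UK it was 0.29 against Trog, 0.37 against TGFb and 0.024 against FB, beside 0.041, 0.085 and 0.076. Without replicate 5 these 3 were 0.11, 0.0565 and -0.26, beside -0.013, 0.016 and -0.00054. In TGFb against FB it was 0.27, beside -0.020. With all 25 libraries and library totals alone, the members' median had the opposite sign to that with TMM in 6 comparisons. It was then 0.11 in TrogGW against TGFb, 0.0037 in TrogGW against FB and 0.067 in Trog against FB. It was -0.19 in UK against Trog, -0.16 in UK against FB and -0.11 in TGFb against FB. With 6 members of mixed direction, such a median describes no single gene. Over the 54 pairs of member and comparison, 37 were called with all 25 libraries and 47 without UK replicate 5, and the 37 were called in both with the same sign. A two-sided exact permutation test of the 2 groups compared gave its smallest possible p of 0.00794 (over all splits of 5 against 5 libraries) in 38 of the 54. That test was not run over all tested genes, so no share stands beside this count, which says little about the members. Comparisons that share TGFb, FB or Trog libraries are not independent of each other.

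Which groups a scaling calls high bears on these directions. The 10 most abundant genes took on average 22.7% of all counts in UK, 8.56% in TrogGW, 10.9% in Trog, 22.3% in TGFb and 15.3% in FB. With library totals alone, the median over all genes shifted by 0.23 in UK against TGFb, by 0.85 in TrogGW against TGFb and by 0.68 in Trog against TGFb (log2 scale). The shift was 0.17 in TrogGW against Trog, -0.46 in UK against Trog and -0.37 in TGFb against FB. Against FB it was 0.31 for Trog, 0.48 for TrogGW and -0.15 for UK. The share of all calls that were higher then went to 83.2% in Trog against TGFb (52.5% with TMM), 84.9% in TrogGW against TGFb (54.9%), 74.2% in UK against TGFb (55.4%) and 69.9% in TrogGW against Trog (52.8%). It went to 25.1% in UK against Trog (53.8%), 13.9% in TGFb against FB (47.2%), 68.2% in Trog against FB (50.7%), 73.9% in TrogGW against FB (51.8%) and 41.9% in UK against FB (53.1%). The members' own log2 fold changes moved by about these shifts.

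Ratios of the raw counts of genes in the same library do not depend on scaling. They were chosen after the levels had been seen and are given as descriptions. CPT1B had 0.326 to 0.782 counts per count of CPT2 in UK (0.326 to 0.423 without replicate 5), 0.123 to 0.252 in TrogGW, 0.307 to 0.468 in Trog, 0.0782 to 0.0982 in TGFb and 0.0614 to 0.0858 in FB. All day-5 libraries lay above all libraries of TGFb and FB, and TrogGW lay below UK and Trog. The ratio of ACADL to ACADM was 0.269 to 0.319 in UK, 0.173 to 0.299 in TrogGW, 0.555 to 0.676 in Trog, 0.194 to 0.203 in TGFb and 0.144 to 0.173 in FB. Trog thus had the most ACADL per ACADM, with no overlap with any other group, and UK replicate 5 lay next to its group in this ratio. Per count of ACADVL, ACADS had 0.0573 to 0.0750 counts in UK, 0.1 to 0.102 in TrogGW, 0.0649 to 0.0746 in Trog, 0.0551 to 0.0679 in TGFb and 0.0971 to 0.113 in FB. TrogGW and FB overlapped at the high end, and UK, Trog and TGFb at the low end.

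**Figure D3:**
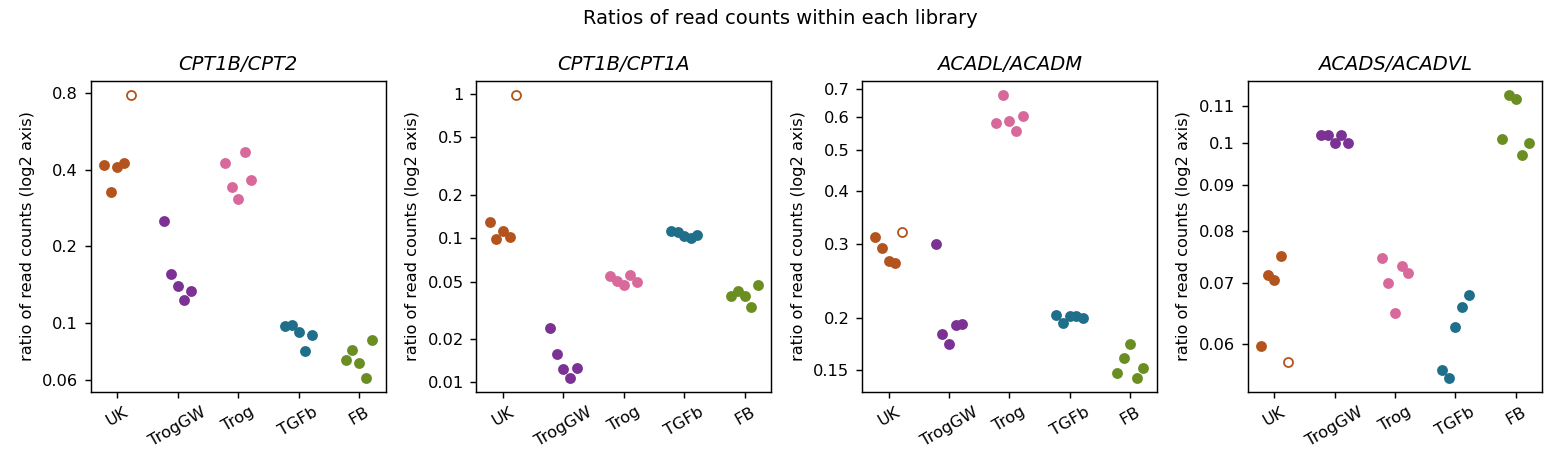
Ratio of raw read counts of 2 genes within each library (log2 axes), for 4 pairs of genes, with 5 libraries per group and UK replicate 5 as an open point. Trog stands above all other groups for ACADL/ACADM, at 0.555 to 0.676, and TrogGW stands lowest for CPT1B/CPT1A, at 0.0108 to 0.0239.

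CPT1A, the liver form of the enzyme that CPT1B encodes for muscle, had another order of groups. It had 105 ± 43.8 CPM in UK (124 ± 8.47 without replicate 5, SD, n = 4), 200 ± 7.23 in TrogGW, 214 ± 7.12 in Trog, 77.2 ± 2.56 in TGFb and 119 ± 5.21 in FB (SD, n = 5). In TrogGW against Trog the difference was -0.10 ± 0.22 (adjusted p = 0.752), and -0.11 ± 0.045 without UK replicate 5 (adjusted p = 0.0385), beside the fall of 1.87 in CPT1B, and it turned to 0.066 with library totals alone (adjusted p = 0.852). In TGFb CPT1A fell relative to FB by 0.62 ± 0.22 (adjusted p = 0.0308), where CPT1B rose. UK replicate 5 had 27.6 CPM of CPT1A, against 115 to 135 CPM in the other UK libraries, and 27.2 CPM of CPT1B. The ratio of CPT1B to CPT1A counts was 0.0989 to 0.129 in UK replicates 1 to 4 and 0.983 in replicate 5. It was 0.0108 to 0.0239 in TrogGW, 0.0471 to 0.0554 in Trog, 0.101 to 0.112 in TGFb and 0.0333 to 0.0477 in FB. UK without replicate 5 and TGFb overlapped, and Trog, FB and TrogGW lay below them.

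Neighbouring genes can share reads with a member, and the strand setting of the counting was not given in the sources used here. In RefSeq's gene table (F.catus_Fca126_mat1.0), used for names and neighbours only, 4 of the 6 genes had another annotated gene within 5000 bases and ACADL and ACADM had none. CPT1B lies beside CHKB, a choline kinase gene, and overlaps a noncoding RNA that was not analysed here, so its counts are uncertain to that extent. CHKB averaged 27.1 ± 13.2 CPM in UK, 23.8 ± 0.689 in TrogGW, 31.5 ± 1.56 in Trog, 19.2 ± 1.01 in TGFb and 19.6 ± 2.06 in FB. In TrogGW against Trog it was -0.41 ± 0.17 (adjusted p = 0.0641, and 1.05e-06 without UK replicate 5). The ratio of CPT1B to CHKB counts was 0.0918 to 0.205 in TrogGW against 0.303 to 0.403 in Trog. MAPK8IP2, 3720 bases from CPT1B, averaged 2.62 CPM in UK and 1.09 in Trog. It differed by 1.21 ± 0.23 in UK against Trog (adjusted p = 8.1e-05), beside 0.56 for CPT1B. In TrogGW against Trog it differed by 0.044 (adjusted p = 0.906), beside -1.87 for CPT1B. SLC1A7, 1379 bases from CPT2, was below the filter, with group means of at most 0.235 CPM. ACADVL has DVL2, a Wnt signalling gene, and DLG4, a synaptic scaffold gene, as neighbours. DVL2 rose in Trog relative to TGFb by 1.25 ± 0.15 and DLG4 by 1.46 ± 0.088, beside 0.26 for ACADVL. UNC119B, the neighbour of ACADS, rose in TrogGW relative to TGFb by 1.31 ± 0.33 (adjusted p = 0.00123), beside 0.72 for ACADS. In TrogGW against Trog UNC119B was 0.70 ± 0.32 (adjusted p = 0.0832, and 2.89e-10 without UK replicate 5), beside 0.27 for ACADS. The part of these neighbours in the members' counts was not tested.

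Of the other genes of fatty acid oxidation and its supply, 71 in 9 lists were tested. Counts called in each list are to be read beside the shares of all tested genes. With TMM, 28.0% were higher and 22.5% lower in UK against TGFb (42.5% and 14.8% with library totals alone). In TrogGW against Trog these were 22.8% and 20.4% (31.9% and 13.7%), and in Trog against TGFb 32.9% and 29.7% (63.8% and 12.9%). Without UK replicate 5, 70.9%, 71.6% and 81.0% were called in either direction. The 7 other genes of the carnitine shuttle included MLYCD, which breaks down malonyl-CoA, the natural inhibitor of CPT1, and SLC25A20, the carrier that exchanges acylcarnitine for carnitine. Of these 7, 4 rose and 0 fell in UK against TGFb (6 and 0 without UK replicate 5). In TrogGW against Trog 1 rose and 1 fell (3 and 3 without UK replicate 5, 3 and 1 with library totals alone), and in Trog against TGFb 4 rose and 2 fell. MLYCD had 25 ± 6.11 CPM in UK, 349 ± 40.2 in TrogGW, 148 ± 18.6 in Trog and 13.3 ± 2.5 in TGFb. It rose in TrogGW relative to Trog by 1.24 ± 0.15 (adjusted p = 3.59e-07), where CPT1B and CPT2 fell. SLC25A20 fell there by 0.54 ± 0.12 (adjusted p = 0.000475). In UK it rose relative to TGFb by 0.84 ± 0.12 (adjusted p = 2.15e-06) and in Trog by 0.88 ± 0.12 (adjusted p = 5.83e-07), where CPT2 fell. These directions held with library totals alone.

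Of the 11 tested genes of the later steps of beta-oxidation and of propionate, 2 rose and 2 fell in UK against TGFb (2 and 8 without UK replicate 5, 3 and 0 with library totals alone). In TrogGW against Trog 0 rose and 4 fell (0 and 9 without UK replicate 5). In Trog against TGFb 1 rose and 8 fell, but 4 rose and 2 fell with library totals alone. In TrogGW against TGFb 0 rose and 10 fell (38.1% and 31.3% of all tested genes), against 3 and 3 with library totals alone (70.1% and 12.4%). HADHA and HADH, the hydroxyacyl-CoA dehydrogenases for long and shorter chains, fell in Trog relative to TGFb by 0.91 ± 0.060 (adjusted p = 3.7e-12) and 1.27 ± 0.092 (adjusted p = 2.34e-11), and were also lower with library totals alone (-0.22 and -0.59). PCCB, a propionyl-CoA carboxylase subunit, fell in TrogGW relative to Trog by 1.28 ± 0.12, and ECHS1, the short-chain enoyl-CoA hydratase, by 0.67 ± 0.18. The 6 other acyl-CoA dehydrogenases gave 1 higher and 1 lower in UK against TGFb (1 and 2 without UK replicate 5, 4 and 1 with library totals alone). They gave 0 and 3 in TrogGW against Trog (0 and 5 without UK replicate 5), and 1 and 4 in Trog against TGFb (4 and 1 with library totals alone). GCDH, the glutaryl-CoA dehydrogenase, and ACAD9, known for its part in complex I assembly, fell in TrogGW relative to Trog by 0.83 ± 0.088 and 0.64 ± 0.13.

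Electrons from all 4 member dehydrogenases pass through the electron transfer flavoprotein to ETFDH, its ubiquinone oxidoreductase. ETFDH fell in TrogGW relative to Trog by 0.60 ± 0.064 (adjusted p = 5.58e-08) and was the 1 gene of 5 in its list to fall there, with 1 rising. Among 14 peroxisomal genes, 0 rose and 7 fell in TrogGW against Trog (1 and 5 with library totals alone), and 3 rose and 7 fell in Trog against TGFb (5 and 4 with library totals alone). In UK against TGFb 4 rose and 4 fell (4 and 7 without UK replicate 5). EHHADH, the peroxisomal bifunctional enzyme, fell relative to TGFb by 1.26 ± 0.080 in UK and by 2.56 ± 0.084 in Trog. Of 3 tested genes of ketone body metabolism, 3 fell in TrogGW against Trog, among them OXCT1, which activates acetoacetate (-0.72 ± 0.079). Of 11 genes of fatty acid uptake and activation, 6 rose and 4 fell in UK against TGFb and likewise in Trog against TGFb (9 and 2 with library totals alone), and 2 rose and 6 fell in TrogGW against Trog (2 and 4). ACSL5, an acyl-CoA synthetase, fell in TrogGW relative to Trog by 1.55 ± 0.16. Of 11 regulators of transcription, 4 rose and 2 fell in UK against TGFb (6 and 2 without UK replicate 5, 5 and 0 with library totals alone). For these regulators TrogGW against Trog gave 1 and 3 (2 and 4 without UK replicate 5, 4 and 3 with library totals alone), and Trog against TGFb 6 and 2 (10 and 0 with library totals alone).

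Over all 71 genes, 27 rose and 14 fell in UK against TGFb, where 28.0% of all tested genes were higher and 22.5% lower. Their median log2 fold change was 0.19, beside 0.085 over all tested genes. Without UK replicate 5, 32 of the 71 rose and 27 fell, where 70.9% of all tested genes were called. The median was then -0.0050, beside 0.016. In TrogGW against Trog 6 rose and 29 fell, where 22.8% of all tested genes were higher and 20.4% lower. Without UK replicate 5, 9 rose and 41 fell there, with 71.6% of all tested genes called. The median with all 25 libraries was -0.17, beside 0.0096. In Trog against TGFb 27 rose and 29 fell, where 32.9% of all tested genes were higher and 29.7% lower, and the median was -0.14, beside 0.044. Under library totals alone, UK against TGFb gave 37 higher and 9 lower, TrogGW against Trog 12 and 23, and Trog against TGFb 46 and 11. The medians were then 0.37, -0.0050 and 0.54, beside 0.32, 0.18 and 0.73 over all tested genes.

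**Figure D4:**
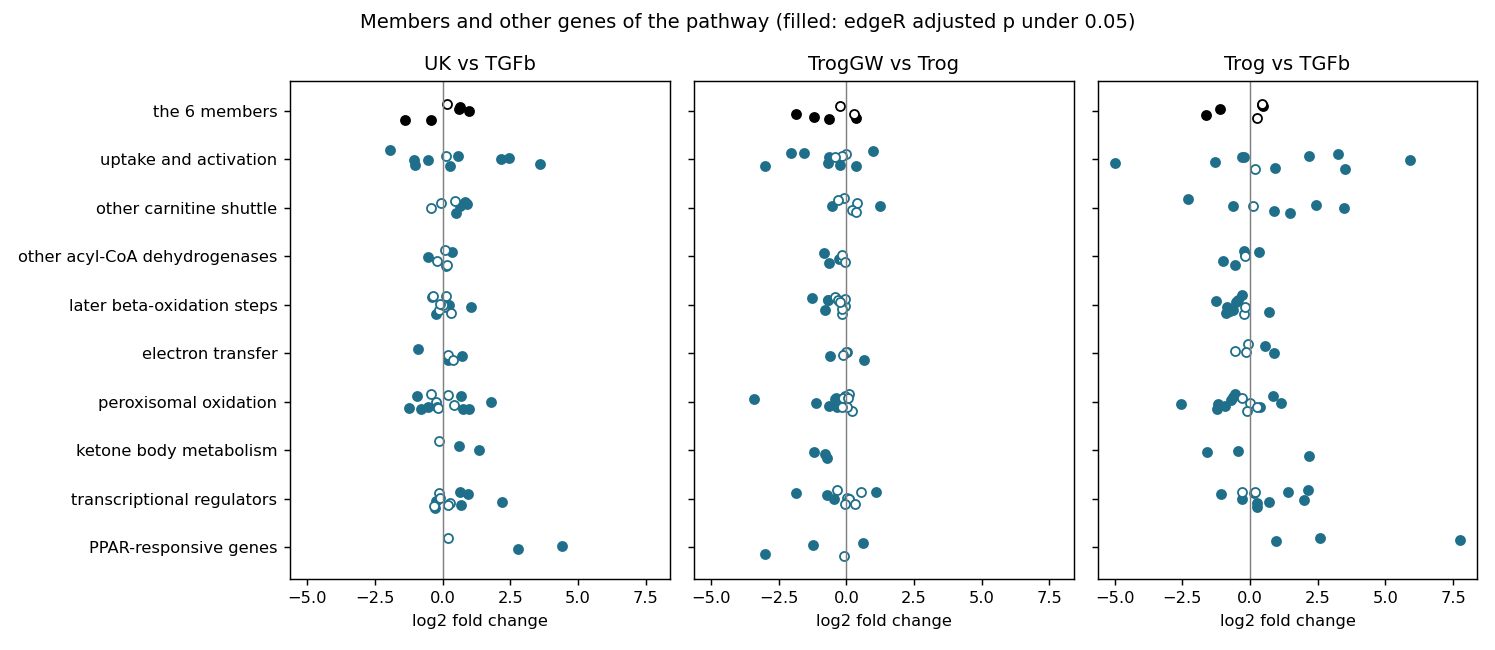
Log2 fold changes (x axis, TMM) of the 6 members and of the other genes in 9 lists (rows) for 3 comparisons; filled points passed an edgeR adjusted p under 0.05, and the spread of points within a row has no meaning. FABP4, with 0 counts in TGFb, is left out of the comparisons with TGFb; in TrogGW against Trog most filled points lie left of 0.

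PPAR-responsive genes outside the lists of enzymes were read beside the members. ANGPTL4, a secreted lipase inhibitor, had 59.1 ± 16.2 CPM in UK, 22.1 ± 4.53 in TrogGW, 51.4 ± 9.78 in Trog, 8.51 ± 0.789 in TGFb and 2.27 ± 0.447 in FB. It fell in TrogGW relative to Trog by 1.22 ± 0.18 (adjusted p = 4.58e-06). FABP4, a fatty acid carrier of adipocytes, had 1.95 ± 2.41 CPM in UK (0.88 ± 0.355 without replicate 5, n = 4), 4.82 ± 1.09 in TrogGW and 38.2 ± 5.6 in Trog, and 0 counts in TGFb and FB. PDK4 averaged 0.385 CPM in UK, 3.72 in TrogGW, 4.01 in Trog, 0.0149 in TGFb and 0.0435 in FB. PLIN2, a coat protein of lipid droplets, had 416 ± 204 CPM in UK (325 ± 14.8 without replicate 5, n = 4), 1090 in TrogGW (range 922 to 1180), 711 ± 33.7 in Trog, 365 ± 12.6 in TGFb and 513 ± 13.1 in FB. It rose in TrogGW relative to Trog by 0.61 ± 0.17 (adjusted p = 0.00624). Of the 4 tested genes of this list, FABP4 included, 3 rose and 0 fell in UK against TGFb. These were 3 and 1 without UK replicate 5, and 4 and 0 with library totals alone. In TrogGW against Trog 1 rose and 2 fell, and in Trog against TGFb 4 rose and 0 fell. PPARG, which encodes PPAR-gamma, had 65 counts over the TrogGW libraries, 3 over those of FB and 0 over those of UK, Trog and TGFb, and was below the filter. PPARA, a related receptor known for its part in fatty acid oxidation, averaged 7.1 ± 3.12 CPM in UK (8.42 ± 1.18 without replicate 5, n = 4), 7.6 ± 0.804 in TrogGW, 7.05 ± 1.5 in Trog, 1.57 ± 0.19 in TGFb and 1.76 ± 0.176 in FB. It rose in Trog relative to TGFb by 2.15 ± 0.27 (adjusted p = 2.21e-07), and TrogGW against Trog was 0.11 (adjusted p = 0.746).

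CPT1B is also a muscle gene, and the summed level of 5 striated muscle markers in the files was 4.65 to 8.38 CPM in UK, 56.9 to 73.8 in TrogGW, 47.9 to 63.1 in Trog, 9.02 to 10.9 in TGFb and 12.6 to 15 in FB. RYR1, the calcium release channel, made up most of it in TrogGW, at 51 CPM against 26.1 in Trog, while TNNT2, cardiac troponin T, had 14.8 CPM in TrogGW against 30.6 in Trog. MYH7 and CKM averaged at most 0.222 CPM in any group. Markers of adipocytes, 7 of 7 in the files, summed to 16.6 to 18.9 CPM in UK, 14.7 to 19.9 in TrogGW, 44.2 to 59.2 in Trog, 7.09 to 8.43 in TGFb and 7.65 to 10.6 in FB. FABP4 made up most of the Trog sum, while ADIPOQ had 1 count in all, PLIN1 averaged 0.467 CPM in Trog against 0.72 in FB, and LIPE averaged 13.7 CPM in UK and 10.8 in Trog. ACTA2, the smooth muscle actin of myofibroblasts, whose reads can be shared with paralogs, had 2300 to 5960 CPM in UK, 1.75 to 29.5 in TrogGW, 198 to 374 in Trog, 8500 to 9410 in TGFb and 1800 to 2100 in FB. TGFb had the highest ACTA2 and the highest CPT2. The part of these in the members' levels was not tested.

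For each member, the genes most like it were those with the smallest root mean square difference between centred group means of log2 CPM over the 5 groups (UK without replicate 5), among 10698 others. For CPT1B these were MMP2, DCN and SPINT2 (0.23, 0.24 and 0.27), and no gene lay within 0.1 of it. MRGPRF, PEMT and MYO1C were closest to CPT2 (0.087, 0.12 and 0.13), and VPS13B, WWC1 and VPS35L to ACADL (0.089, 0.12 and 0.14). ACADM had FAIM, JOSD2 and NRAS (0.075, 0.078 and 0.082) among 10 genes within 0.1. ACADS had CE1H17orf53, ELK3 and L3HYPDH (0.047, 0.063 and 0.068), also among 10. For ACADVL, which varied least with TMM scaling, 87 genes lay within 0.1, led by WIPF1, GPS2 and ZMYND8 (0.029, 0.029 and 0.031). Among the members themselves, ACADS and ACADVL were closest (0.31) and CPT1B and ACADS farthest apart (1.03). The range over group means was 2.20 for CPT1B, 2.27 for CPT2, 1.18 for ACADL, 1.12 for ACADM and 0.98 for ACADS, of which the first 2 lay above the median of all tested genes.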

How the data were processed

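Libraries of polyadenylated RNA were made with a stranded kit, per the labels. Tools named in the submitters' processing notes, without their roles, are Salmon 1.5.2, featureCounts, Subread 2.0.1, STAR 2.7.9a and fastp 0.23.1. Build, annotation and strand setting: not given in the sources used here. For each library the authors deposited raw integer read counts by gene symbol, at a depth of 14.8 to 25.2 M counts. Members, gene lists and tests were chosen with earlier results of these data known. All 25 libraries were fitted with edgeR 4.0.16 (R 4.3.3): TMM, 1 mean per group, a filter with minimum count 10 and minimum total 15, 9 quasi-likelihood F tests, Benjamini-Hochberg adjustment over the genes kept, and calls at 0.05. UK against TrogGW was added to order neighbours. The fit was repeated without UK replicate 5 (10798 genes). SE is the log2 fold change over the root of F. Chi-square per gene was at least 3.3 for each pair of libraries of a group, so none counted as a repeat. The code was tested on simulated counts. Named are the members, up to 2 called genes per list with the lowest p and at least 10 CPM in either group, fixed context genes, neighbours and the 3 most similar genes. PPARA, single marker genes, and SLC25A20 in Trog against TGFb, were named after their values were seen. Some genes that the naming rule gives are not reported here. List genes SLC22A5, ACAD10, ACAA2, ETFB, RXRB, HILPDA, UCP3, ACOT1, ACOT2 and CYP4A11 were not analysed here. Alternatives were DESeq2 1.42.0, voom in limma 3.58.1, other scalings and filters, a robust spread, fits of 2 groups, a replicate block and each library left out.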

Additional observations from a re-analysis of the deposited data

Results flagged for a closer look

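Of 30 sets of 5 libraries (6 genes in 5 groups), 7 held a library whose gap to its nearest neighbour was a large part of the set's range (Dixon's 95% limit of 0.71), a test that flags about 1 set in 20 by chance. UK replicate 5 was the highest UK library for 5 of the 6 genes, with 27.2 CPM of CPT1B, 42.5 CPM of ACADL, 133 CPM of ACADM, 25.7 CPM of ACADS and 449 CPM of ACADVL. For CPT2 it had 34.8 CPM, within its group. For ACADL, Trog replicate 1 had 32.6 CPM, above 30.6 to 31.0 CPM in the other Trog libraries, and TrogGW replicate 1 had 17.8 CPM, above 11.9 to 13.2 CPM in the other TrogGW libraries. TrogGW replicate 1 also had the highest ACTA2 of its group, 29.5 CPM, and the lowest ANGPTL4, 14.7 CPM.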

How the results depend on the processing

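With all 25 libraries and a replicate block, no member's call changed; same-numbered libraries of different groups correlated in their deviations at -0.19 to 0.33 (median -0.016, over 0.1 in 6 of 50 pairs), so the numbers were not taken as pairs. Counts of members called moved by over 1.5 times in 3 comparisons. TrogGW against FB went from 3 to 6 without UK replicate 5, in a fit of the 2 groups, with a replicate block without UK replicate 5 and with voom quality weights, to 1 with library totals alone and to 5 with library totals alone without UK replicate 5 (an alternative added after seeing the data). UK against TGFb went to 3 and UK against Trog to 1 in fits of the 2 groups. Signs turned as follows. With library totals alone they turned for CPT2 (-0.21), ACADS (-0.29) and ACADVL (-0.17) in UK against Trog, ACADL (0.13) and ACADM (0.097) in TrogGW against TGFb, ACADL (0.20), ACADS (0.22) and ACADVL (0.27) in TrogGW against FB, and ACADM (-0.29) in TGFb against FB. Without UK replicate 5 as well, these were CPT1B (-0.10), CPT2 (-0.16), ACADS (-0.46) and ACADVL (-0.43) in UK against Trog, ACADVL (-0.080) in UK against FB, ACADL (0.13) and ACADM (0.097) in TrogGW against TGFb, ACADL (0.20), ACADS (0.22) and ACADVL (0.27) in TrogGW against FB, and ACADM (-0.29) in TGFb against FB. Without UK replicate 5 they turned for ACADL in UK against TGFb (-0.12; -0.11 with 2 groups, -0.13 with the replicate block) and for ACADS (-0.058; -0.053 and -0.061) and ACADVL (-0.025; -0.020 and -0.031) in UK against Trog. Over all libraries left out in turn these 3 ranged over -0.12 to 0.22, -0.058 to 0.28 and -0.025 to 0.43. With voom quality weights the values were -0.10 for ACADL in UK against TGFb, -0.089 for ACADS and -0.059 for ACADVL in UK against Trog, and -0.036 for ACADVL in UK against FB. ACADVL in TrogGW against TGFb, at 0.0044, was -0.033 with 2 groups, -0.031 with DESeq2 size factors in edgeR and in DESeq2, -0.0063 with no filter, -0.00058 with the replicate block without UK replicate 5, and -0.018 to 0.039 with each library left out. Other directions of the members held under every alternative run. The cause was not tested. Depth limits CPT1B most, with as few as 58 counts in a library.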
